A study of Mus musculus with 12 samples.

Results

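Low-methylated autosomal losses are stretches of the mouse genome where Cre- retinas carried modified cytosine at less than 50% of reads and retinas without TET enzymes carried less still. They were selected on measured values, namely the mean levels of both groups in whole-genome bisulfite sequencing (WGBS): autosomal position, a Cre- mean below 50% and a Tet tcKO mean below the Cre- mean. By that rule 450 of 193,836 WGBS regions were members, or 0.232%. They were 19.5% of the 2,312 autosomal regions that lost methylation, and the other 1,862 losses had Cre- means of 50% or more. Because the rule used the levels and their difference, those values are given below as a description, whereas position within the autosomes, sequence and 5-hydroxymethylcytosine (5hmC) were not used by it.

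The DNA came from whole retinas of C57 BL/6J mice at postnatal day 21 (P21). Tet tcKO animals carried loxP-flanked Tet1, Tet2 and Tet3 together with a Chx10-Cre-GFP transgene, which drives recombination in retinal progenitor cells, and Cre- animals lacked the transgene. Per the study, the Cre- controls were age-matched and came from Cre- breeders, and retinas were pooled across animals. A difference between the breeding lines cannot be told apart from the genotype. The transgene can act in a mosaic, which the study limited by crossing Cre carriers with each other, and non-neural cells of the eye do not descend from its progenitors, so a Tet tcKO retina can hold cells with intact Tet genes. The 12 libraries were 3 of each genotype for each assay. The study made both assays from the DNA matched to its RNA samples, so the assays are not separate sets of animals. The deposited values are 1 mean per group and region, so no level below has a replicate spread and the read depth behind it was not analysed here. In whole tissue, a shift in cell composition cannot be told apart from a change of level within a cell type.

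In vertebrate genomes most CpGs are methylated, and the main exceptions are CpG islands, GC-rich stretches that often hold gene start sites, and active regulatory elements. TET enzymes oxidise 5-methylcytosine (5mC) to 5hmC and further to bases that repair can replace by cytosine, and TET1 and TET3 have a CXXC domain that binds CpG-rich DNA. WGBS reads 5mC and 5hmC alike as modified, while bACE-seq, in which bisulfite converts cytosine and an APOBEC deaminase then converts 5mC, reads 5hmC only. Without TET a region can therefore gain WGBS signal while it loses bACE-seq signal, and here 188,451 of the 190,763 autosomal WGBS regions were gains.

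The sequences of 8 members are shown because these members were among those with the largest test statistics or, for the intergenic one, the largest fall among members with at least 10 CpGs, and because 4 of them lie at genes of eye development (Mab21l2, Six3, Prdm8 and Six6). Each is the reference sequence (GRCm38, the same coordinates as mm10) of the plus strand, 5′ to 3′, over the 300 bases of the member with most CpGs that are clear of annotated UTRs. Capitals mark the CpGs. Labels name the features that a window overlaps, so a window labelled coding exon can also hold intron. The windows were picked for their CpGs and are no measure of the density of the members. The window of Tmem200b (chr4:131921750-131922049, start site and coding exon) held 57 CpGs and that of C2cd4b (chr9:67760211-67760510, coding exon of C2cd4b and start site of the noncoding M5C1000I18Rik) held 52. The window of Mab21l2 (chr3:86547133-86547432, its coding exon within an intron of Lrba) held 28, that of Rgs20 (chr1:5018752-5019051, intron) 21 and that of Six3 (chr17:85623593-85623892, overlapping a coding exon) 33. The window of Prdm8 (chr5:98185925-98186224, coding exon, with the start site of the noncoding A730035I17Rik) held 44 and that of Six6 (chr12:72941439-72941738, overlapping a coding exon) 18. The intergenic member on chromosome 3 (chr3:148347086-148347385), whose nearest start site is that of Gm43574, held 20.
Tmem200b: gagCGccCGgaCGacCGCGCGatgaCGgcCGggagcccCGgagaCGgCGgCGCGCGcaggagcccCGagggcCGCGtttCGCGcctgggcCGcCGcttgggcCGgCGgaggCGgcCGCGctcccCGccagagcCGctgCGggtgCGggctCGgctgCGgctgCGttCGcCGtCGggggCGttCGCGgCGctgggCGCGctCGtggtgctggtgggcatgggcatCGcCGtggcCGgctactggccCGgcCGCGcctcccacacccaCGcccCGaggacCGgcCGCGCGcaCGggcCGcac
C2cd4b: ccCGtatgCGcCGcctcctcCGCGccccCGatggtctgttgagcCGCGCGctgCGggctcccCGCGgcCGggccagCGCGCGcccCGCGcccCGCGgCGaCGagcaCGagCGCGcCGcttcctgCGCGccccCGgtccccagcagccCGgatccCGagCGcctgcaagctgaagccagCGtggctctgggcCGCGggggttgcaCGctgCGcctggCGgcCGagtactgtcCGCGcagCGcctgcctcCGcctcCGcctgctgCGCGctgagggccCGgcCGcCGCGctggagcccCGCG
Mab21l2: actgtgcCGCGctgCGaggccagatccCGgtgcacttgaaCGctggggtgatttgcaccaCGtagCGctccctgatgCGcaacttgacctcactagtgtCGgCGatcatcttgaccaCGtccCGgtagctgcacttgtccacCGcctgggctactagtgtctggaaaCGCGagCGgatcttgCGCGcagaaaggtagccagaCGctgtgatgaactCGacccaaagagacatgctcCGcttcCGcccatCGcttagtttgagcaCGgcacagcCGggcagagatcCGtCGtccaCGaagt
Rgs20: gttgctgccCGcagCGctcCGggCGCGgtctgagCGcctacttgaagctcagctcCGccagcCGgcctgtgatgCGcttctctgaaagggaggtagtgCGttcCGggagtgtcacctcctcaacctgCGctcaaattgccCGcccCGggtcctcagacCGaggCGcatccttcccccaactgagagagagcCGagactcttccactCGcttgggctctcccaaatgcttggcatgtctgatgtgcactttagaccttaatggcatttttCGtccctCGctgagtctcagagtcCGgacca
Six3: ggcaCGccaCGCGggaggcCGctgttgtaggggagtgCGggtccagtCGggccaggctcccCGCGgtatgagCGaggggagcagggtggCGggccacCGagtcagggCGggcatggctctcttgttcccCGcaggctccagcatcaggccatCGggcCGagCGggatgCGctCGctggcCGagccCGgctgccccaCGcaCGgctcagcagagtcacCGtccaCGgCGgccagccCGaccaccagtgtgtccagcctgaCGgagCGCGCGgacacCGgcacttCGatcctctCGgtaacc
Prdm8: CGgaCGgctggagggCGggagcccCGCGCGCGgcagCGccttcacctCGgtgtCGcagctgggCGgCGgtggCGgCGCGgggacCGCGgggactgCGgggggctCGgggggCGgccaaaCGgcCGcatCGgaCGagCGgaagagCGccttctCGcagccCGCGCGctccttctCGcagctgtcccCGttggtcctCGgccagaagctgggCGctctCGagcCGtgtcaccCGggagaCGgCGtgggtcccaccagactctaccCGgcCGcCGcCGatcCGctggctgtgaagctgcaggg
Six6: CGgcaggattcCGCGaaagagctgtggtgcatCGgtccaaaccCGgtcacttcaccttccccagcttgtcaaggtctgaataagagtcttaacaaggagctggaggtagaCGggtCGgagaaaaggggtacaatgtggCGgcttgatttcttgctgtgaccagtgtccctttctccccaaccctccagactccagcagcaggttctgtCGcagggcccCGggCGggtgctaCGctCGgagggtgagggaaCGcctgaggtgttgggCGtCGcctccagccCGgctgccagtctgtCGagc
Chromosome 3 intergenic: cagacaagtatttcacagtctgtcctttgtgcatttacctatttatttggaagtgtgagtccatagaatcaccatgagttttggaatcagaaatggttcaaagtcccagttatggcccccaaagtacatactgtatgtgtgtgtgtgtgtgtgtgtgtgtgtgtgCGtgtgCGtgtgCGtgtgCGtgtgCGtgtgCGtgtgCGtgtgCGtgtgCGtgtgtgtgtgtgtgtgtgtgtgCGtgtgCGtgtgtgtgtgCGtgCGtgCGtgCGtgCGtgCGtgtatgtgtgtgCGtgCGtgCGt

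The members were small falls at low levels. The median Cre- level was 22.9% and the median Tet tcKO level 14.1%, with a median change of -7.71 percentage points. Cre- levels ran from 4.75% to 49.9%, with 10% of members below 10.1% and 10% above 42.6%. The change was between -14.2 and -3.54 points in the central 80% of members, and the extremes were -31.5 and -0.0472 points. Weighted by CpGs, the 8,679 CpGs of the members went from 24.4% to 15.6%. The median member kept 64.1% of its Cre- level, and 45 members kept less than 50% of it. The other autosomal losses started from a median of 91.8% and kept 87.6%, so they fell by more points and by a smaller share.

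**Figure D1:**
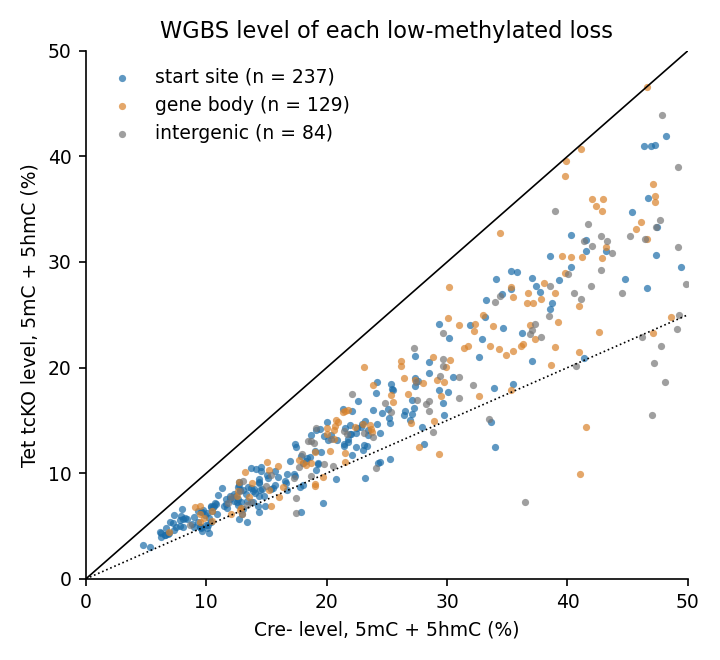
WGBS level (5mC and 5hmC together, %) of each of the 450 members in Tet tcKO against Cre-, coloured by position. The solid line marks equal levels and the dotted line a Tet tcKO level of 50% of the Cre- level; all points lie under the solid line by the rule, and start-site members (n = 237) are most frequent at the low end.

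A member spanned a median of 231 bp (52 to 4,499) and 11 CpGs (4 to 248). The 3 members nearest to the threshold on the inside had Cre- levels of 49.3% (chromosome 3, nearest start site Gm43574), 49.4% (coding exon of Prdm8) and 49.9% (intergenic, nearest start site Kcnf1). The 3 nearest on the outside, which are therefore not members, were in a coding exon of Slc5a5 at 50.0%, an intron of Chl1 at 50.1% and an intron of Ercc8 at 50.4%. The loss at Chl1 fell by 26.7 points and that at Slc5a5 by 9.14, so falls of the size seen inside the threshold continued past it.

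The members lay at start sites more often than other kinds of region in these data. A start site is that of a protein-coding or long noncoding gene, and 237 members (52.7%) had their midpoint within 2 kb of one. Over all autosomes, 11.8% of CpGs lie that near to a start site. The share was 4.62% in the other autosomal losses, 19.16% in the 53,023 autosomal gains that also started below 50%, and 10.5% in all autosomal WGBS regions. The gains below 50% had a median Cre- level of 36.5%, above the 22.9% of the members. These groups were therefore not matched for level, and the share at start sites varied with the level, as given below. A further 129 members (28.7%) lay in gene bodies and 84 (18.7%) were intergenic, against 58.6% intergenic among the other losses. Within 500 bp of a start site were 123 members (27.3%), against 6.08% of the low gains.

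Around the start site the members fell mainly on the transcribed side. Of the 237, 163 had their midpoint downstream (68.8%, against 58.8% of the low gains near start sites). The 500 bp just downstream held 17.8% of all members and the 500 bp just upstream 9.56%, whereas the low gains held 2.95% and 3.13% there and peaked at 3.56% between 500 and 1000 bp downstream. Of all 450 members, 47 contained a start site, 124 overlapped a coding exon and 96 an annotated UTR. At 39 of them there were start sites on both strands within 2 kb.

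**Figure D2:**
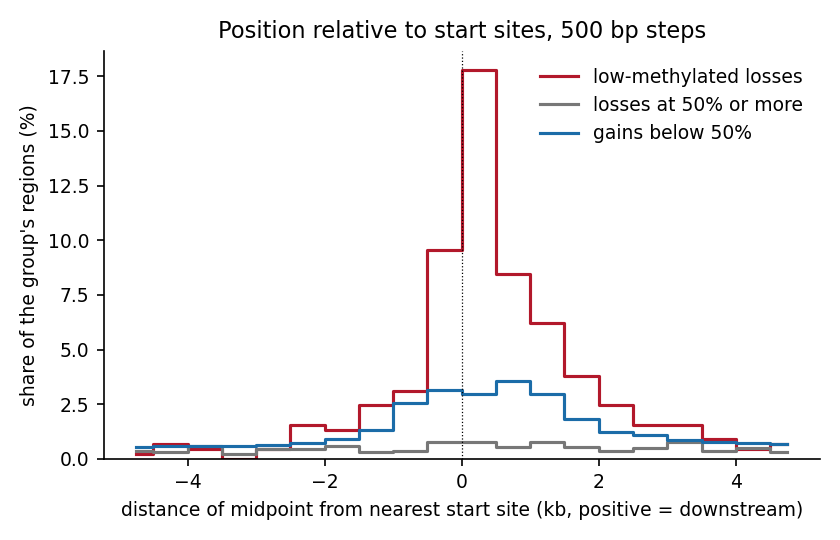
Share of each group's regions (%) by the distance of the midpoint from the nearest start site, in steps of 500 bp out to 5 kb, for the 450 members, the 1,862 other autosomal losses and the 53,023 autosomal gains below 50% in Cre-. The members peak at 17.8% just downstream of the start site, where the gains below 50% have 2.95%.

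The Cre- level and the position went together. Among the 44 members below 10% in Cre-, 84.1% were at a start site, and the share was 66.7% at 10 to 20% (n = 141), 51.7% at 20 to 30% (n = 120), 35.1% at 30 to 40% (n = 77) and 25% at 40 to 50% (n = 68). Start-site members went from a median of 18.3% to 10.9%, gene-body members from 28.9% to 18.5% and intergenic members from 30.3% to 18.7%. The median change grew from -2.66 points in the lowest band to -12.7 points in the highest. A fall cannot exceed the Cre- level, which bounds the change in the low bands. The share of the Cre- level that was kept varied less, from 60.5% to 71.5% between bands.

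The members had more CpGs per length than the other groups. Their median density was 5.69 CpGs per 100 bp, against 3.70 in the other losses and 2.01 in the low gains, and their median G+C was 59.0% against 49% and 47.7%. The ratio of observed to expected CpGs had a median of 0.612, against 0.513 and 0.356. By a criterion of at least 50% G+C and a ratio of at least 0.6, 210 members (46.7%) were CpG-island sequence, against 24.6% of the other losses, 4.48% of the low gains and 3.26% of all autosomal WGBS regions. The members' share was 25% when a change of at least 10 points was asked for and 30.2% with stricter island criteria. Region calling needed several CpGs within a short distance in each of these groups, and the groups were not matched for Cre- level. Island members had a median of 19 CpGs and went from 18.9% to 11.3%, and the 240 members outside island sequence had 7 CpGs and went from 27.2% to 15.9%. Of the 210, 125 were at a start site and 85 were not.

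**Figure D3:**
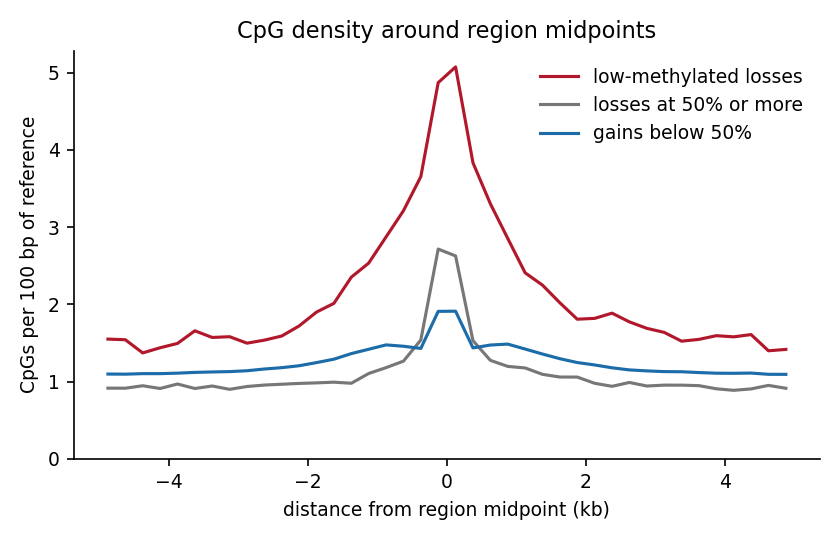
Mean CpG density of the reference (CpGs per 100 bp, in steps of 250 bp) around the midpoints of the members, the other autosomal losses and the autosomal gains below 50% in Cre-. The members reach 5.07 beside the midpoint and are still at 2.41 at 1.1 kb, where the low gains are at 1.42 and the other losses at 1.18.

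The CpG-rich stretch extended beyond the called region. Mean density around the members was 5.07 CpGs per 100 bp beside the midpoint, 1.82 at 2.1 kb and 1.42 at 4.9 kb downstream along the plus strand. The other losses peaked at 2.72 and were down to 1.18 at 1.1 kb. Repeats took up 13.1% of the members' bases, close to the 13.8% of the low gains and below the 55% of the other losses. No repeat was found in 164 members (36.4%), and 32 (7.11%) were mostly repeat, against 58.2% of the other losses. When 300 bp around each midpoint was aligned to the genome, 27 members (6.00%) had a further match of at least 95% identity over at least 90% of the window, against 29.2% of the other losses, and the levels of such regions are uncertain because reads can be placed at either copy.

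A search for 12 short words in the 200 bp around each midpoint, on both strands, gave the largest share for GGGCGG, the core of the GC box. It was found in 161 members (35.8%), in 5.66% of all autosomal WGBS regions, in 7.46% of the low gains and in 11.0% of the other losses. Within CpG-island sequence the shares were closer, 45.2% of 210 members and 29.3% of 5,550 island gains. AGGGGGC, part of the CTCF motif, was in 10.9% of members and 2.74% of all regions. TAATCC, a word bound by OTX and CRX homeodomains, was in 3.33% of members and 10.9% of all regions, and TAATTA in 2.89% and 8.03%. A word is a match of letters, and these words depend on the base composition just described.

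The members with the largest absolute area statistic, the sum of the per-CpG test statistics, are named next. The statistic was used only to order them and grows with the number of CpGs. Their CpG density ran from 2.00 per 100 bp at Six6 to 13.1 at Tmem200b, and 3 of the 12 (Six6, Six3 and Fignl2) were not island sequence. The strongest spanned the start site of Tmem200b, which encodes a transmembrane protein (chr4:131920360-131922250, 248 CpGs), and went from 25.2% to 15.2%. The next lay over Mab21l2, which is required for eye development and sits inside Lrba (chr3:86546353-86548524, 118 CpGs), and went from 25.2% to 11.4%. The region at Rgs20, a regulator of G-protein signalling (chr1:5018052-5020417, 134 CpGs), went from 24.3% to 10.9%. Their sequences are among those shown above.

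Further down that order came Six6 and Six3, homeodomain factors of eye development. The region over coding sequence of Six6 (chr12:72940439-72944937, 90 CpGs) was the longest member and fell from 34.0% to 12.5%. The region over Six3 (chr17:85621783-85625413, 142 CpGs) went from 23.8% to 13.9%, and that over Prdm8, a zinc-finger regulator of retinal interneurons, from 22.4% to 12.5% (101 CpGs). C2cd4b had the lowest level of the 12, 10.4% in Cre- and 5.39% in Tet tcKO over 152 CpGs. The others of the 12 were Rtn4rl2, a Nogo receptor relative (29.1% to 18.8%), Col26a1, a collagen (23.0% to 12.2%), an intron of Bahcc1 at the start of Gm11772 (20.8% to 9.43%), Hes3, a Notch-pathway repressor (30.1% to 17.7%), and an intron of Fignl2 (33.9% to 18.1%). All 12 had at least 67 CpGs, and 11 of them overlapped a region of 5hmC loss, C2cd4b being the exception.

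The largest falls among members with at least 10 CpGs were found at higher Cre- levels, where a fall has more room. The intergenic member on chromosome 3 shown above (chr3:148347076-148347391, 57.3% repeat) went from 49.3% to 25%, and the member upstream of Six6 (chr12:72936708-72938937) from 47.1% to 23.3%. The region over Six6 itself fell by 21.5 points. A second member that overlapped a coding exon of Prdm8 (chr5:98184413-98184935) fell by 19.9 points. An intron of Zfp536, a zinc-finger repressor, went from 41.0% to 21.5%, and an intron of Ppp3ca, the catalytic subunit of calcineurin, from 38.6% to 20.2%. The shared start region of Gm10634 and Mthfsl went from 33.7% to 14.8% over 22 CpGs, and an intron of Ssbp4 from 29.3% to 11.8%. The 4 members that kept least of their Cre- level, picked out after their values were seen, had 4 to 6 CpGs each. They lay in introns of Stpg2 (24.2% kept) and Gm43049 (34.7%) and in intergenic sequence nearest to the start sites of Gm43617 (19.9%) and Lbx1 (32.9%).

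The second assay gave the 5hmC at these places. Of the 450 members, 247 (54.9%) overlapped a region of 5hmC loss by at least 1 bp. Regions of 5hmC loss hold 36.4% of all autosomal CpGs and 27.6% of those within 2 kb of a start site, and they overlapped 27.0% of the other losses, 72.1% of the low gains and 81.1% of all autosomal WGBS regions. The share was lowest, 15.9%, for members below 10% in Cre-, rose to 74.0% at 30 to 40% and was 57.4% at 40 to 50%. It was 55.7% at start sites, 65.9% in gene bodies and 35.7% in intergenic members. An overlap of 1 bp is easier for longer regions, and the median length was 231 bp in members, 467 bp in the low gains and 379 bp in all regions. Counted by CpGs, 52.1% of the members' CpGs lay inside bACE-seq regions. The same share was 27.3% in the other losses, 58.6% in the low gains and 74.1% in all regions. The members without an overlapping bACE-seq region have no 5hmC value here.

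A single member overlapped a gain of 5hmC, a class that holds 0.012% of autosomal CpGs. It lay in intergenic sequence (chr11:45038576-45038665, nearest start site Gm12159), 74.4% of it repeat. WGBS went from 38.5% to 27.8% there, while 5hmC went from 2.54% to 9.32%.

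In the 247 members with a 5hmC loss, the modification was low in both assays. The 5hmC level, taken from the bACE-seq regions over a member, had a median of 6.83% in Cre- and 1.61% in Tet tcKO, a median change of -5.14 points. WGBS went from 27.1% to 17.0% in the same members, a change of -8.29 points. The bACE-seq and WGBS regions have different boundaries, so setting them side by side is approximate. With that limit, 5hmC made up a median of 24.4% of the Cre- modification, against 46.2% in the low gains and 13.2% in the other losses. Of the Cre- 5hmC, 24.1% was kept in Tet tcKO, close to the 24.4% of the low gains and the 24.9% of all autosomal WGBS regions. In every group these values cover only regions over a called 5hmC loss, so a fall was given in advance.

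The falls of the assays were set side by side as a description. The members were selected on a WGBS fall, which pushes the difference of the assays downward, so nothing is read from its sign. In 51 of 247 (20.6%) the 5hmC fall was at least as large as the WGBS fall. The difference of the assays, WGBS minus 5hmC, is a rough measure of 5mC. Its median went from 17.7% to 14.6%, with a median change of -3.04 points, and it was lower in Tet tcKO in 196 members (79.4%). In the other losses it was lower in 64.1%, with a median change of -2.05 points. In the low gains it rose by a median of 35.5 points and was lower in none of 38,236, as a gain of WGBS with a loss of 5hmC must give. In the 117 members whose CpGs all lay inside bACE-seq regions, a comparison chosen after seeing the data, the median change of the difference was -1.73 points, and it was lower in 86 (73.5%). The fall of the difference was smaller in that subset.

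**Figure D4:**
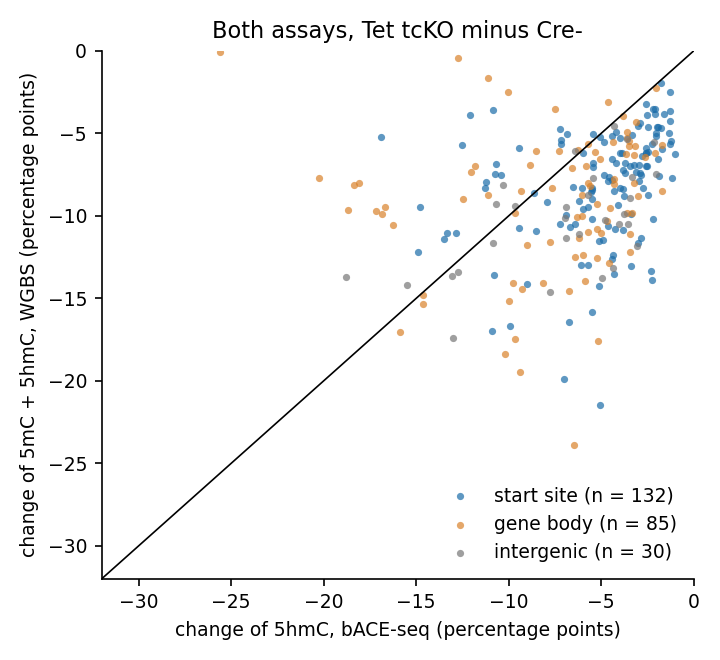
Change of the WGBS level against the change of the 5hmC level (both Tet tcKO minus Cre-, percentage points) in the 247 members that overlap a 5hmC loss, coloured by position. Points under the line, 196 of 247, fell by more in WGBS than in bACE-seq.

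The members with the most 5hmC lay in introns, intergenic sequence or a noncoding exon. Among members with at least 10 CpGs, the highest Cre- 5hmC level was 25.7%, in intergenic sequence upstream of Trim71 (91.5% repeat), where it went to 16.1% in Tet tcKO and WGBS from 41.4% to 32.0%. Next came an exon of the noncoding Gm26660 within Zmiz1os1 (23.9% to 5.75%), and introns of Myo18a (23.3% to 6.17%), Srrm4, a neuronal splicing regulator (22.2% to 5.51%), and Myof (21.8% to 3.48%). At Gm26660 the 5hmC level in Cre- was above the WGBS level of 22.4%, which the different boundaries allow. Over the 11 of the 12 strongest members with a 5hmC value, the Cre- 5hmC level ran from 2.89% at Mab21l2 to 9.35% at Tmem200b. It was 2.96% at Rgs20, 4.62% at Six3 and 6.10% at Six6, below the median of 6.83%, and 7.13% at Rtn4rl2 and 7.14% at Fignl2, above it.

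Most members had a gain nearby. A WGBS gain lay within 10 kb of 390 members (86.7%), against 48.0% of the other losses. The low gains themselves had another gain within 10 kb in 87.6% of cases. Gains hold 9.13% of autosomal CpGs, but the share of all CpGs within 10 kb of a gain is larger and was not computed. The 86.7% is therefore not read as an excess over the genome. The median gap to the nearest gain was 1,919 bp, against 10,791 bp for the other losses, and 123 members (27.3%) had one within 1 kb. In 261 members (58.0%) gains stood within 10 kb on both sides, against 18.6% of the other losses. The nearest gain went from a median of 50.9% to 72.3% and had 2.30 CpGs per 100 bp, so it was more methylated and sparser in CpGs than the member.

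The maps of the 3 strongest members show both arrangements. The member over the start site of Tmem200b (25.2% to 15.2%) was followed within 468 bp by a gain of 13 CpGs from 78.2% to 88.7%, and on the upstream side stood a gain from 35.1% to 46.2%. A bACE-seq region of 367 CpGs spanned the member and its flanks with a change from 9.35% to 2.46%. Around Mab21l2, 3 members covered 147 CpGs, which together went from 28.8% to 15.2%, and gains stood on both sides, among them a region from 52.6% to 70.4%. At Rgs20 a second member of 18 CpGs (29.8% to 18.6%) lay upstream, and the nearest gain was 48,153 bp away.

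**Figure D5:**
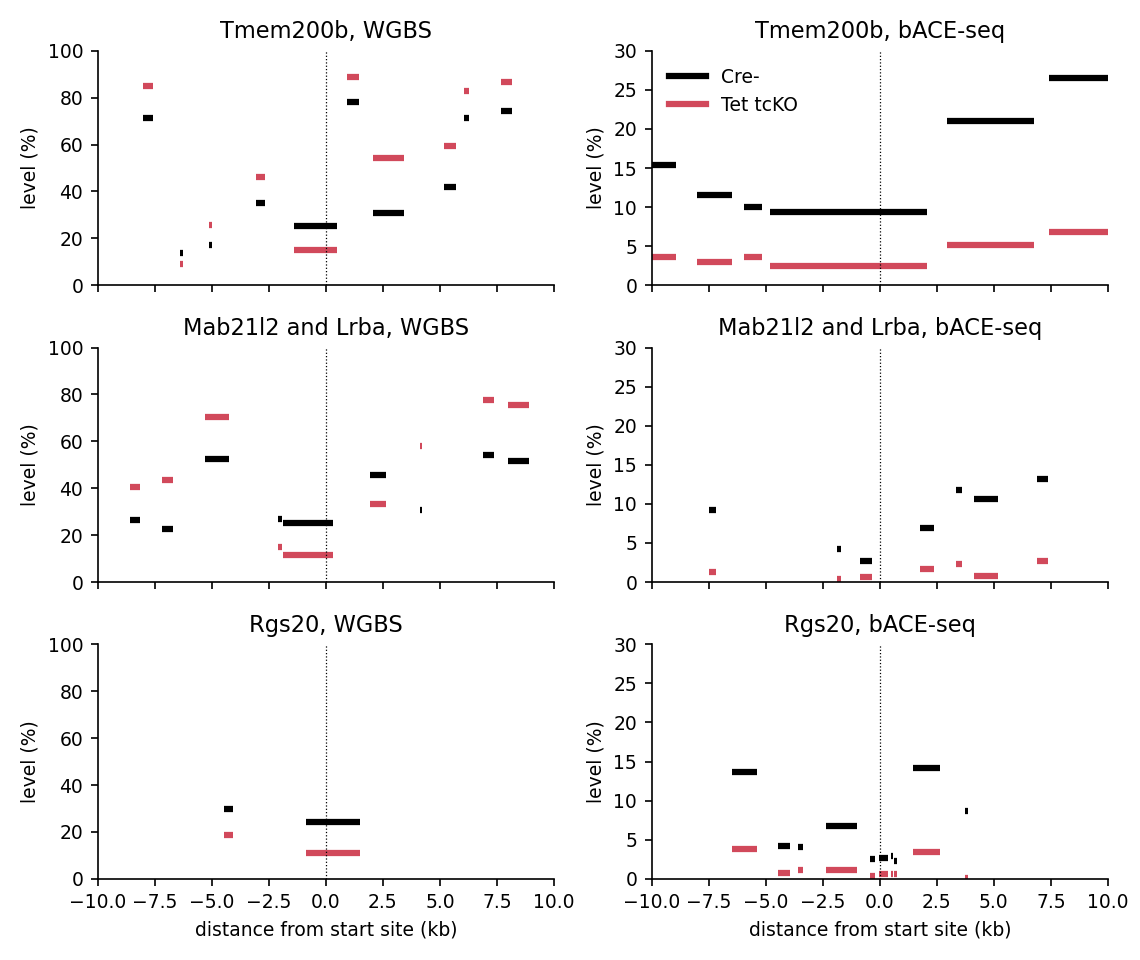
Levels (%) of all WGBS regions (left) and bACE-seq regions (right) within 10 kb of the start sites of Tmem200b, Lrba (beside Mab21l2) and Rgs20, by distance in the direction of the gene. Bars span each region, black for Cre- and red for Tet tcKO; the vertical axes differ between the assays (100% and 30%). Losses at the start sites are flanked by gains at Tmem200b and Mab21l2 and not at Rgs20.

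Some members stood near each other. Another member lay within 10 kb of 146 (32.4%), and members hold 0.0429% of autosomal CpGs. Of the more numerous other losses, 16.8% had another of their kind that near, and of the low gains 56.6%. Within 100 kb the shares of members and other losses were 41.8% and 41.9%, and the median gap to another of the kind was 245,174 bp for members and 181,312 bp for the other losses. The 10 kb share was 20.6% among members with at least 10 CpGs, 19.3% with a change of at least 10 points and 19.7% with a stricter statistic. Joined at gaps of up to 10 kb, the members formed 304 singletons, 57 pairs, 8 groups of 3 and 2 groups of 4. The group at Six6 (chr12:72936708-72946787) held 155 CpGs that went from 37.6% to 16.1%, and its 4 members ranged from 8.98% to 47.1% in Cre-. The other group of 4 was at Cbx8, a Polycomb subunit, with 90 CpGs that went from 18.9% to 12.2%. Groups of 3 stood at Bahcc1, Mab21l2, Prdm8, Zfp503, Hes3, Id1, Slc26a10 and Foxd2os.

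On a wider scale the members were uneven between chromosomes. The autosomes had 0.22 members per 10,000 CpGs, with the highest rates on chromosome 11 (49 members, 0.42) and chromosome 19 (20 members, 0.36) and the lowest on chromosomes 13 and 16 (0.12 each). In bins of 5 Mb the most were 10, on chromosome 4 from 150 to 155 Mb, followed by 9 each in bins of chromosomes 10, 11 and 12. The bin of chromosome 4 held Hes3, Hes2, also of the Hes family (32.9% to 22.8%), and Espn, which encodes an actin-bundling protein (22.4% to 13.8%). That of chromosome 10 held a coding exon of Nxph4 (42.9% to 36.0%), Gli1, a transcription factor of Hedgehog signalling (12.7% to 5.68%), and Slc26a10 (14.3% to 9.41%). That of chromosome 11 held the member upstream of Cbx8 (14.5% to 8.37%).

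Of 30,233 autosomal genes, 245 (0.81%) had a member within 2 kb of a start site, 197 of them protein-coding and 48 long noncoding. For the other autosomal losses the number was 90 (0.298%) and for gains 14,684 (48.6%). Of the 245 genes, 130 (53.1%) also had a gain within 2 kb of a start site. Counted anywhere over the gene or within 2 kb of it, a count chosen after seeing the data, 427 genes (1.41%) had a member.

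Several genes of retinal development held members. A list of 78 retinal transcription factors and related regulators was chosen with earlier results of these data known, so its shares are a description. Of the 78, 6 (7.69%) had a member at a start site, against 0.81% of all genes. These were Mab21l2, Mab21l1, Id1, Sox2, Hes1 and Six3. A gain was found at 37 (47.4%), close to the 48.6% of all genes. Mab21l1, a relative of Mab21l2, went from 9.51% to 4.88%, Id1, an inhibitor of basic helix-loop-helix factors, from 13.9% to 7.26%, and Sox2, a progenitor factor, from 6.83% to 4.21%. Hes1, the Notch effector also listed for Müller glia, went from 10.0% to 5.10%. Over the gene or within 2 kb of it, 13 of the 78 (16.7%) had a member, against 1.41% of all genes. This added Six6, Prdm8, Prdm1, Lhx2, Lhx9, Meis1 and Eomes. The members counted for Meis1 and Eomes lay near the gene and not over it. Over the same span 61 of the 78 had a gain, for which the share of all genes was not computed. The member in Prdm1, a factor of photoreceptor and bipolar fate, had 57 CpGs and went from 35.3% to 17.9%. The nearest WGBS gain lay 3,242 bp from it. The study described large regions at the Prdm1 locus with more 5mC and less 5hmC in Tet tcKO, so this member does not stand for the locus. That in Lhx9, a LIM homeodomain factor, went from 37.3% to 22.8%, and that in Lhx2, a factor of eye-field and glial development, from 26.4% to 19%. Some lists share genes, so Six3, Six6, Lhx2, Lhx9 and Meis1 also count in the list of homeobox families outside the Hox clusters. That list was made by gene symbol and takes in noncoding neighbours such as Otx2os1. Of its 112 entries, 9 (8.04%) had a member over the gene or within 2 kb of it, Otx2os1 among them. At the start site that list had 2 of 112, Six3 and Pknox2 (9.31% to 5.42%), and none of these lists was tested.

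Genes of mature retinal cells mostly lacked members. No member lay at a start site or over the gene for 21 rod, 15 cone, 12 bipolar, 10 amacrine or 6 horizontal cell genes, nor for 9 microglial, 9 endothelial or 30 germline genes. Gains stood at the start sites of 17 of the 21 rod genes and 13 of the 15 cone genes, against 48.6% of all genes. This was not particular to photoreceptors. Gains also stood at 10 of the 12 bipolar, 8 of the 10 Müller glia and 7 of the 9 endothelial genes. The shares were lower in ganglion cell genes (4 of 11) and germline genes (11 of 30). With a background of 0.81% of genes, lists of this size are not read as depleted. Among 11 ganglion cell genes, Nefh, a neurofilament subunit, had a member (26.5% to 15.5%), and among 10 Müller glia genes, Hes1.

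Imprinted genes, whose control regions are methylated on 1 parental copy, held members at intermediate levels. Of 49, 5 (10.2%) had a member at a start site, and 7 (14.3%) had another loss, against 0.81% and 0.298% of all genes. Gains were more frequent there, at the start sites of 34 (69.4%), against 48.6% of all genes. Kcnq1ot1, the noncoding RNA of the Kcnq1 domain, went from 40.3% to 32.6% over 57 CpGs, and Plagl1, a zinc-finger gene, from 48.2% to 42.0% over 50. Peg13 went from 47.3% to 41.1%, Ndn from 38.6% to 30.5% and Magel2 from 35.8% to 29.1%. All 5 had Cre- levels above the median of the members, with changes from -8.02 to -6.23 points.

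The remaining lists had few members at start sites. Of 21 genes of the DNA methylation machinery, Kdm2b, whose protein binds unmethylated CpGs (27.4% to 19.06%), and Dnmt3a, a de novo methyltransferase (33.1% to 24.8%), had a member. Of 39 Hox genes only Hoxb3 did (8.27% to 5.75%), and of 49 Wnt, Fgf and Bmp ligands only Fgf11 (10.5% to 6.46%). Of 91 entries with Forkhead, Sox, T-box and GATA symbols, which take in noncoding neighbours such as Sox2ot, only Sox2 did. Among 359 zinc finger genes 6 did (1.67%), with Zfp872 (18.6% to 11.6%), Zfp180 (26.5% to 15.9%), Zfp536 (9.57% to 4.86%) and Zfp503 (21.8% to 13%) having the most CpGs. Of 57 clustered protocadherins Pcdha11 had a member at its start site, and the same region lies within introns of 9 others, and none of 1,128 olfactory receptor genes did.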

How the data were processed

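Genomic DNA of P21 retinas was profiled in 3 Cre- and 3 Tet tcKO libraries per assay, grouped by the sample labels. Per the study's methods, reads were trimmed with TrimGalore, aligned to mm10 with Bismark (0.18.2), filtered at a mapping quality of 10, freed of duplicates and read out with MethylDackel (0.6.1), and differential regions were called with DSS from smoothed levels at p below 0.01. The authors deposited 1 mean per group and region as a fraction between 0 and 1, printed here as a percent, and the authors' area statistic is a deposited score used only for ordering. Which mean belongs to which group follows the order of names in the lists. The sign of the statistic differed from that of the means in 3 members, which were kept by their means. Smoothing shares information between neighbouring CpGs, which can affect both levels and boundaries.

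Changes are Tet tcKO minus Cre-. Start sites and gene features came from the GENCODE M21 basic annotation (54,232 autosomal transcripts of protein-coding and long noncoding genes) and sequence and repeats from the soft-masked GRCm38 reference, on which all 381,526 ends of autosomal regions fell on the C of a CpG. A gene feature was named wherever a region overlapped it. Composition was taken over at least 200 bp. The 5hmC level of a member is the mean of the bACE-seq regions over it, weighted by the CpGs they share. Copies were searched with minimap2 (2.31-r1302) on the chromosomes. Tables were made with Python (3.11.15) and pandas (2.3.3), and the helper functions were tested on simulated data.

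The named members are the 12 with the largest absolute statistic, the 8 with the largest falls and the 5 with the highest Cre- 5hmC among those with at least 10 CpGs, the 3 strongest in each of the 3 fullest bins of 5 Mb (ties taken in chromosome order), those nearest to the threshold, those over a 5hmC gain, and up to 4 genes per list. Some of the named members are not reported here. The members and lists were chosen with earlier results of these data known. No test was made, since group means give neither replicate spread nor depth. Alternatives were other Cre- thresholds (30% and 40%), at least 10 CpGs, a change of at least 10 points, a statistic per CpG past a p of 0.001, and other windows, overlaps and island criteria.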

Additional observations from a re-analysis of the deposited data

How the results depend on the processing

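Of 64 alternative values for 9 results, 28 moved: shares outside the 95% Wilson interval of the reported share, which covers counting only, and counts and medians by over 1.5 times. The changes are negative by the rule under every setting. The number of members was 257 with at least 10 CpGs, 140 with a change of at least 10 points and 238 with the stricter statistic. With at least 10 points the median Cre- level was 37.0% and the median change -13.0 points. The share at a start site was 57.6% below 40% in Cre-, 63.3% below 30%, 58.0% with at least 10 CpGs and 35.7% with at least 10 points, and 39.1% or 63.6% with windows of 1 or 5 kb. The island share was 55.1% below 30%, 66.5% with at least 10 CpGs, 25% with at least 10 points and 30.2% by stricter criteria (55% G+C, ratio 0.65). The share over a 5hmC loss was 49.5% below 30%, 65.8% with at least 10 CpGs, 61.8% with the stricter statistic and 40.4% when the loss had to cover 50% of bases. Another member within 10 kb was found for 20.6% with at least 10 CpGs, 19.3% with at least 10 points and 19.7% with the stricter statistic, and for 21.1% at 1 kb and 41.8% at 100 kb. A gain within 10 kb was found for 90.2% below 30%, 82.1% with at least 10 points, and 27.3% at 1 kb. Fewer regions enter under the stricter choices; the cause of the shifts was otherwise not tested. No paired analysis was possible because the lists hold group means only, and no replicate could be left out. A place missing from a list is not shown to be unchanged, small changes at low levels cannot be set against counting error, and CpG-poor regions are less likely to be called.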
